A study of Mus musculus with 24 samples.

Results

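The fatty acid elongases and desaturases followed here are 10 genes, Elovl1, Elovl2, Elovl3, Elovl5, Elovl6, Elovl7, Scd1, Scd2, Fads1 and Fads2, taken by symbol from the 54532 genes of the FPKM table. FPKM is a gene's fragment count scaled by its length and by the size of the library. Their levels were measured in whole liver and in inguinal white adipose tissue (iWAT), the subcutaneous fat of the groin, of wild type mice (WT) and mice with a knockout of Mrs2 (KO). Mrs2 carries magnesium through the inner membrane of mitochondria, and the series asks how magnesium uptake by mitochondria shapes metabolism under an obesogenic diet. Feeding began at 13 weeks of age and went on for 52 weeks, with standard chow or a Western diet (WD), so that all mice were of one age at harvest. The 4 groups of each tissue were WT on chow, KO on chow, WT on WD and KO on WD, with 3 mice each, which gave 8 groups and 24 libraries. RNA came from 50 mg of powdered liver or 100 mg of powdered iWAT freed of lymph nodes, and polyadenylated RNA was sequenced. The sources used here do not give strain, sex, the make of the knockout allele or the composition of the diet.

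Fatty acids longer than palmitate are built in the endoplasmic reticulum by a cycle whose first step, the condensation of an acyl-CoA with malonyl-CoA, is carried out by an Elovl protein and sets which chains are lengthened. Elovl6 lengthens palmitate and palmitoleate, Elovl1, Elovl3 and Elovl7 lengthen saturated and monounsaturated chains to very long ones, and Elovl2 and Elovl5 lengthen polyunsaturated chains on the way to arachidonate and docosahexaenoate. Scd1 and Scd2 place the first double bond in saturated chains, and Fads2 and Fads1 place double bonds in linoleate and linolenate and their products. Elovl3 is known in adipose tissue as a gene of brown and beige fat, and in mouse liver as a gene with sex and time of day in its control.

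Depth was 14.72 to 19.54 M reads per library in liver and 15.36 to 20.35 M in iWAT. Of 6 hepatocyte markers, the summed level was 22320 to 77050 FPKM in the livers and 12.2 to 34.8 in iWAT, and of 6 adipocyte markers it was 3502 to 5669 in iWAT and 8.71 to 57.4 in the livers. Mrs2 was lower in every KO than in every WT library in iWAT on both diets and in chow liver. In WD livers Mrs2 stood at 5.10, 4.10 and 5.11 FPKM where the label is WT and at 4.10, 5.21 and 4.21 where it is KO. These overlap, so that the labels were not borne out there, and directions in WD liver are those between libraries labelled KO and WT. The sum of 6 pancreatic acinar markers reached 1484 FPKM in KO chow liver 1 and 1177 in WT WD liver 2, against 5.45 to 24.4 in the other livers. Skeletal muscle markers reached 148.8 FPKM in WT chow liver 3 and 67.1 in KO WD liver 2, against 0.314 to 20.1 elsewhere in liver, and 3053 and 936.5 in WT WD iWAT 1 and KO WD iWAT 1, against 3.68 to 225.6 in the other iWAT. Results on the 10 genes and on the lists that lose calls without these 6 libraries, which include both WD livers numbered 2, are given as such beside them. P-values rest on the spread between mice within groups, pooled over all groups in the fit.

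Liver and iWAT held different sets of these enzymes. In WT mice on chow, liver stood far above iWAT in Elovl2, Elovl3, Elovl5, Fads1 and Fads2, and iWAT stood above liver in Scd1 and Scd2. Differences here and below are log2 fold changes of FPKM + 1, tested with limma across all genes, and a gene is called where its p-value, adjusted by Benjamini and Hochberg over all genes tested, lies under 0.05. Of the 9 members tested between the tissues, 6 were called higher and 2 lower in liver, where 64% of all 15254 genes tested were called. Elovl7, under the minimum mean of 0.5 FPKM, was not tested.

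Elovl2 marked the contrast most plainly. It stood at 229.8, 114.5 and 169.3 FPKM in WT chow liver, from 11183, 5922 and 8278 reads, and at no more than 0.121 FPKM in any iWAT library. In iWAT it gave 0 to 11 reads per library, with 0 reads in 3 of the 12, where a count of 0 allows up to 3 reads by counting error alone. The log2 difference, whose size the added 1 limits for a gene near 0, was 7.36 ± 0.18 (SE, n = 3 mice per group, adjusted p = 1.18e-17 by limma).

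Both polyunsaturated desaturases went with Elovl2. Fads2 stood at 337, 353 and 505.5 FPKM in WT chow liver and at 4.78, 5.69 and 3.59 in WT chow iWAT (6.13 ± 0.27, adjusted p = 3.04e-13 by limma). Fads1 was 2.84 ± 0.26 higher in liver (adjusted p = 1.16e-08), and Elovl5 2.49 ± 0.35 (adjusted p = 4.07e-06). Fads2 over Fads1 in FPKM was 1.48 to 1.96 in WT chow liver and 0.149 to 0.161 in WT chow iWAT. Levels of different genes can be set side by side only as far as the gene lengths hold: against GENCODE vM21, the deposited exonic length is 1508 bases and not 3295 for Fads2, 3456 and not 4812 for Fads1, and 1494 and not 1975 for Elovl3. For a given count of reads, a shorter length gives a higher FPKM.

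The stearoyl-CoA desaturases lay the other way. Scd1 held 4112, 7979 and 3552 FPKM in WT chow iWAT and 1980, 1830 and 1489 in WT chow liver, without overlap (-1.48 ± 0.38 for liver against iWAT, adjusted p = 0.00232 by limma). Scd2 held 76.6, 68.7 and 23.0 FPKM in WT chow iWAT and 5.31, 3.73 and 1.52 in the livers (-3.59 ± 0.43, adjusted p = 6.61e-07). Scd1 therefore exceeded Scd2 by 373 to 982 times in WT chow liver and by 53.7 to 154 times in WT chow iWAT. Both genes lie on chromosome 19, Scd2 at 44293676 to 44306864 and Scd1 at 44394451 to 44407709. They share some sequence: 2.97% of the 50-base words in Scd1 transcripts occur in Scd2, and reads from these stretches may be split between them.

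Elovl6 and Elovl1 were the members of like level in both tissues. Elovl6 held 28.1, 32.6 and 33.1 FPKM in WT chow liver and 20.0, 19.2 and 27.7 in WT chow iWAT, a difference that was not called (0.49 ± 0.34, adjusted p = 0.214 by limma). Elovl1 was called 0.44 ± 0.15 higher in liver (adjusted p = 0.017). That direction is not firm: scaled to total reads, which moved the median of all genes from 0.00 to -0.61, Elovl1 stood at -0.32. Its call also ended with quantile normalization (0.14) and without WT chow liver 1, WT chow liver 2 or WT chow iWAT 3.

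**Figure D1:**
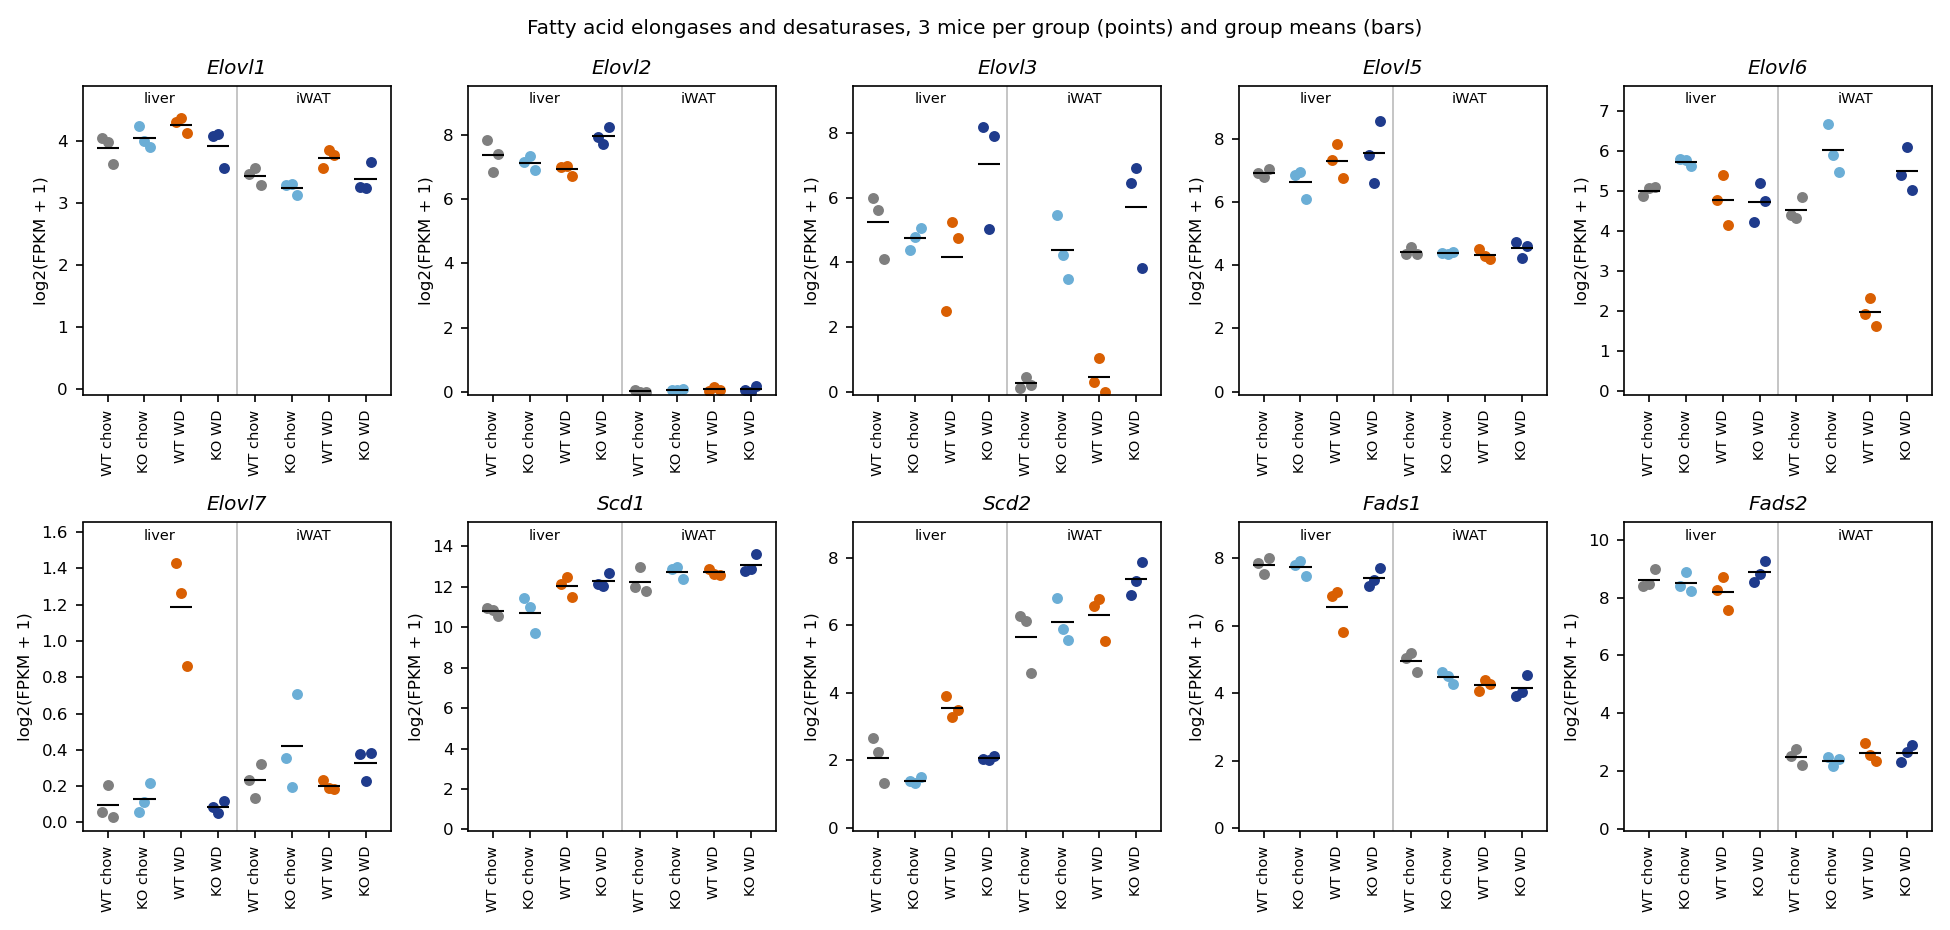
Level of each gene as log2(FPKM + 1) (vertical axes, separate scales) in the 8 groups, with liver to the left and iWAT to the right of the grey line, points for single mice by replicate number and bars for group means. Elovl2 is near 0 in all iWAT libraries, Elovl3 and Elovl6 in iWAT are higher in KO than in WT on both diets, and Scd2 and Elovl7 in liver are highest in WT WD.

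In liver on WD the polyunsaturated elongase Elovl2 and the very long chain elongase Elovl3 were higher in livers labelled KO, and Scd2 was lower. Of 9 members tested, limma called 2 higher and 1 lower, where it called 21% of all 14019 genes, so the count is near the background and the statements concern single genes. The median log2 difference of the 9 was 0.26, and of all genes 0.07.

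Elovl2 (mm10 chromosome 13, 41182381 to 41220405, minus strand in the deposited table) stood at 244.5, 211 and 301 FPKM in the livers labelled KO and at 128.5, 131 and 104 in those labelled WT. The groups did not overlap. The difference was 1.04 ± 0.24 (adjusted p = 0.0138 by limma), and the mean in the livers labelled KO was 2.08 times that in the livers labelled WT. Hepatocyte markers moved the same way, with 4 of 6 called higher (median 0.72; Serpina1c 1.23), or 2 of 6 without the 4 livers that carried acinar or muscle markers, and their part in the result was not tested. The call ended with quantile normalization (0.69), without WT WD liver 3 (0.94, adjusted p = 0.0528), without KO WD liver 3 (0.91, adjusted p = 0.0526) and without the 4 livers that carried acinar or muscle markers (1.22, adjusted p = 0.0671).

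Elovl3 (chromosome 19, 46131897 to 46135307, plus strand) held 288.9, 31.6 and 240.3 FPKM in the livers labelled KO on WD and 4.58, 36.7 and 26.2 in those labelled WT. KO WD livers 1 and 3 stood far above all other livers, and KO WD liver 2 lay among the livers labelled WT. The difference was 2.88 ± 0.91 (adjusted p = 0.0479 by limma), close to the threshold. It ended without WT WD liver 1 (2.04, adjusted p = 0.176), WT WD liver 3 (3.18, adjusted p = 0.0780), KO WD liver 1 (2.31, adjusted p = 0.157) or KO WD liver 3 (2.44, adjusted p = 0.147), and under 7 other settings: no filter, only these groups, the replicate block, 3 other scalings and edgeR (2.99, adjusted p = 0.0555). DESeq2 called it (2.99, adjusted p = 0.00468). Without the 4 livers that carried acinar or muscle markers, which include the overlapping liver, it was 4.42 (adjusted p = 0.0154). On chow Elovl3 ranged from 16.2 to 62.7 FPKM in WT and from 20.1 to 32.3 in KO.

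Genes with male-biased expression in liver, listed because Elovl3 is one of their kind, moved in the same comparison: 4 of 7 were called higher and none lower, with a median difference of 1.91, and 3 of 7 without the 4 livers that carried acinar or muscle markers. The steroid dehydrogenase Hsd3b5 held 0.0804, 1.16 and 1.24 FPKM in WT WD and 312, 101 and 137.5 in the livers labelled KO. The summed level of the 7 genes overlapped between the groups. It was 3168, 1052 and 4445 FPKM in WT WD livers 1, 2 and 3 and 5212, 2026 and 2313 in those labelled KO. KO WD livers 2 and 3 thus had like sums, with Elovl3 at 31.6 and 240.3 FPKM. WT WD liver 1, lowest in Elovl3 at 4.58 FPKM, did not have the lowest sum. Of 12 clock genes tested 1 was called, the repressor Cry2 (0.48, adjusted p = 0.021), and that call ended without those 4 livers and without WT WD liver 1. Summed clock gene levels were 162, 260.5 and 148 FPKM in KO WD livers 1, 2 and 3 and 109 to 143 in WT WD, so the liver with low Elovl3 had the highest sum. The sources used here do not give the hour of harvest. The part of these genes in the result was not tested.

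**Figure D2:**
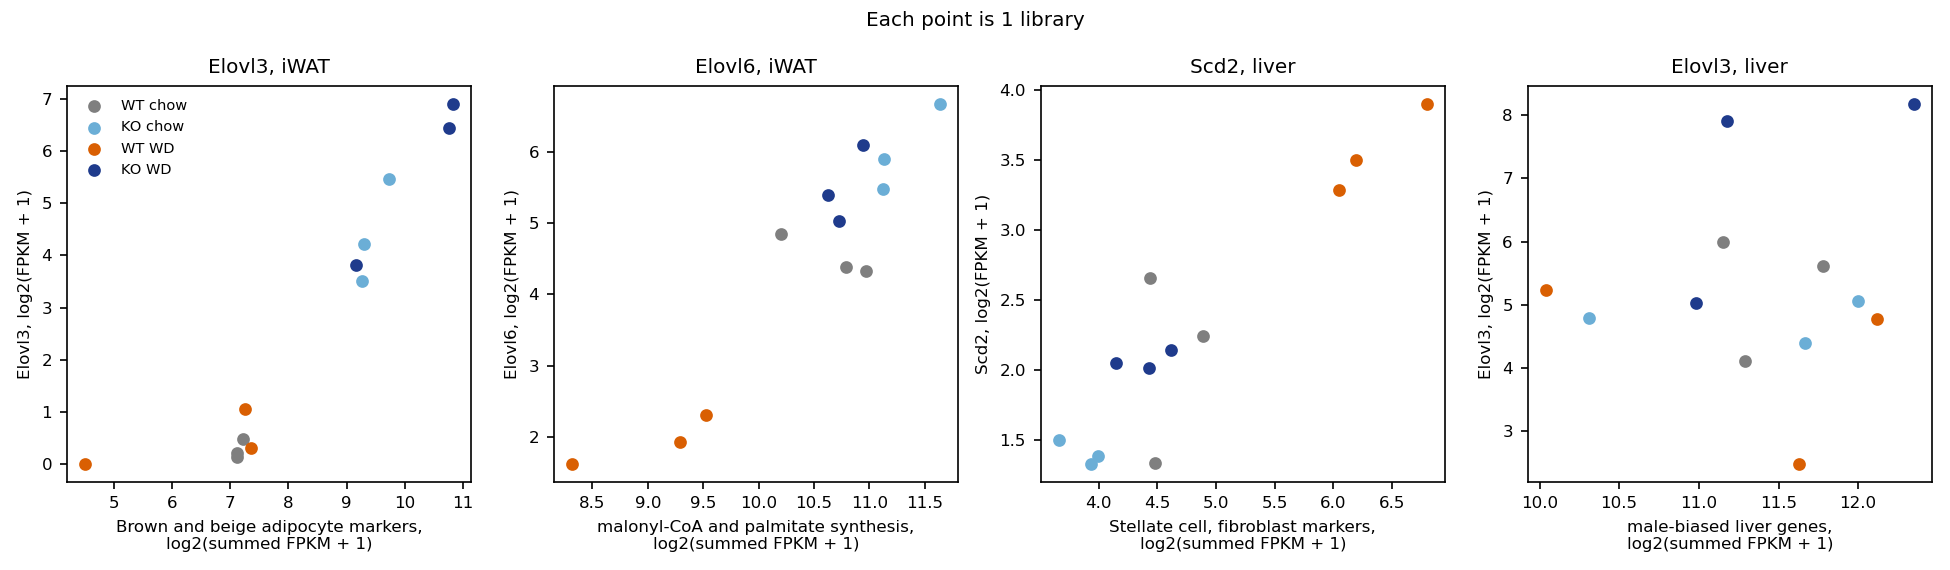
Level of 1 gene, log2(FPKM + 1), on the vertical axis against the log2 of the summed FPKM + 1 of a gene list on the horizontal axis, with 1 point per library coloured by group: Elovl3 in iWAT against brown and beige markers, Elovl6 in iWAT against malonyl-CoA and palmitate synthesis, Scd2 in liver against stellate cell and fibroblast markers, and Elovl3 in liver against male-biased genes. The 6 KO iWAT libraries lie above all 6 WT libraries in the first panel, and the 3 WT WD livers lie apart in the third.

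Scd2 (chromosome 19, 44293676 to 44306864, plus strand), the desaturase isoform best known from brain and developing tissue, held 3.14, 3.03 and 3.42 FPKM in the livers labelled KO on WD. Those labelled WT held 14.0, 8.77 and 10.3. The difference was -1.50 ± 0.28 (adjusted p = 0.0062 by limma), and the call held in each fit without 1 library and without the 4 livers with acinar or muscle markers (-1.60). The livers of WT mice on WD also stood above WT chow livers (5.31, 3.73 and 1.52 FPKM), by 1.49 ± 0.28 (adjusted p = 0.0064), a call that ended with only these groups in the fit. Both differences use the same 3 WT WD livers, the highest of the 12. KO chow livers held 1.61, 1.51 and 1.83 FPKM, which overlapped WT chow and lay below every liver labelled KO on WD. Limma called neither the genotype difference on chow nor the diet difference in KO. The change of the genotype difference with diet was not called either, at -1.12 to -0.45 without 1 library in turn.

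Markers of other liver cell types moved the same way as Scd2 in both comparisons where it was called. In livers labelled KO against WT on WD, 7 of 8 macrophage, 6 of 7 stellate cell and fibroblast, and 4 of 4 bile duct markers tested were called lower. In WT on WD against chow, 7 of 8, 5 of 7 and 3 of 4 were called higher. Without the 4 livers that carried acinar or muscle markers the macrophage and stellate counts were the same, and 2 of 4 bile duct markers were called in each comparison. Summed macrophage markers were 384.6 to 995 FPKM in WT WD livers and 119.6 to 268 over the 3 other groups, and summed stellate cell and fibroblast markers were 65.3 to 110.0 FPKM in WT WD livers and 11.7 to 28.7 over the others. No marker of either list was at 0 throughout a liver group, though Trem2 stayed under 0.5 FPKM in the chow livers, as did Gpnmb and Itgax in KO chow. The part of these cells in the level of Scd2 was not tested. In bulk tissue, fewer cells of a type and less RNA per cell cannot be told apart.

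Elovl7 (chromosome 13, 108214404 to 108285683, plus strand) was too low to be tested by the filter but appeared in the same 3 livers. It held 1.69, 1.41 and 0.817 FPKM in WT WD, from 109, 91 and 53 reads, and 0.0202 to 0.162 FPKM in the 9 other livers, from 1 to 10 reads. Without the filter limma gave, on a scale that the added 1 shrinks, 1.09 for WD against chow in WT (adjusted p = 0.00228) and -1.10 for KO against WT on WD (adjusted p = 0.00271). The authors' deposited table gives a log2 fold change of -4.49 and an adjusted p of 9.87e-11 for Elovl7 in WD liver.

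Fads1 (chromosome 19, 10182888 to 10196870, plus strand), which makes arachidonate and eicosapentaenoate, fell in WT livers on WD. It held 228, 183 and 257.5 FPKM on chow and 115, 127 and 55.4 on WD, without overlap (-1.23 ± 0.29, adjusted p = 0.0163 by limma). With Scd2 it was 1 of the 2 members called of 9, 1 in each direction, where 19.2% of all genes were called. All 6 hepatocyte markers were called lower in that comparison (median -1.16; Serpina1c -1.29), or 2 of 6 without the 4 livers that carried acinar or muscle markers, and their part in the fall of Fads1 was not tested. The call ended with only these groups in the fit, with quantile normalization (-0.92), without WT chow liver 3 (-1.12, adjusted p = 0.0631) and without the 4 livers with acinar or muscle markers (-1.34, adjusted p = 0.0924). In the livers labelled KO on WD, Fads1 held 142, 162 and 206 FPKM, all above the livers labelled WT, but the difference was not called (0.84 ± 0.29, adjusted p = 0.0651). It was called without WT WD liver 2 (1.06, adjusted p = 0.0343) and by DESeq2 (0.69, adjusted p = 0.0485).

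Fads2, the enzyme before and after Fads1 in the pathway, held 308, 422 and 188 FPKM in WT WD and 370, 448 and 618.5 in livers labelled KO, with overlap and no call (0.69 ± 0.31, adjusted p = 0.148). Fads2 over Fads1 was 2.60 to 3.39 in the 6 WD livers and 1.48 to 1.99 in the 6 chow livers, so the ratio of these partners separated the diets in both genotypes.

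Scd1, the main stearoyl-CoA desaturase of liver, held 4446, 5638 and 2911 FPKM in WT WD and 4473, 4207 and 6624 in KO WD, above every chow liver (851 to 2753). The difference of WD against chow was 1.25 ± 0.40 in WT (adjusted p = 0.0531 by limma) and 1.57 ± 0.40 in KO (adjusted p = 0.130), neither of them called. DESeq2 called both (1.35 and 1.44, adjusted p = 0.00159 and 0.00413), and edgeR called the first. Between the genotypes on WD the difference in Scd1 was 0.26 ± 0.40 (adjusted p = 0.694).

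In KO livers on WD against chow, limma called none of the 9 members, 5 of which had an unadjusted p under 0.05, and 59 of all genes (0.421%). DESeq2 called 633 of all genes there, among them 4 members, Elovl2 (0.83), Elovl3 (2.82), Elovl6 (-0.98) and Scd1. edgeR called 68 genes and no member. Elovl6 held 54.4, 53.3 and 47.9 FPKM in KO chow livers and 17.6, 35.7 and 25.8 in KO WD livers, without overlap. The test of whether KO and WT differed by diet called none of the 9 members and 0.549% of all genes, with Elovl2 at 1.27 ± 0.34 (adjusted p = 0.125) and Elovl3 at 3.37 ± 1.29 (adjusted p = 0.237). DESeq2 called 528 of all genes in that test, Elovl2 among them (1.26, adjusted p = 0.0102). There edgeR called 14 genes and no member.

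On chow, KO and WT livers were not told apart by limma. It called 0 of the 14019 genes (0%), with 675 at an unadjusted p under 0.05. DESeq2 called 16 and edgeR 0. Among the members 2 had an unadjusted p under 0.05, and none was called by the 3 tools. Elovl6 held 54.4, 53.3 and 47.9 FPKM in KO and 28.1, 32.6 and 33.1 in WT, which did not overlap (0.71 ± 0.30, adjusted p = 0.863). The authors' deposited table gives Elovl6 a log2 fold change of 0.73 there with an adjusted p of 0.00671. Elovl5 and Elovl1 were not called by limma, edgeR or DESeq2 in any of the 5 comparisons within liver. Elovl5 ranged from 67.5 to 375 FPKM and Elovl1 from 10.8 to 19.6.

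**Figure D3:**
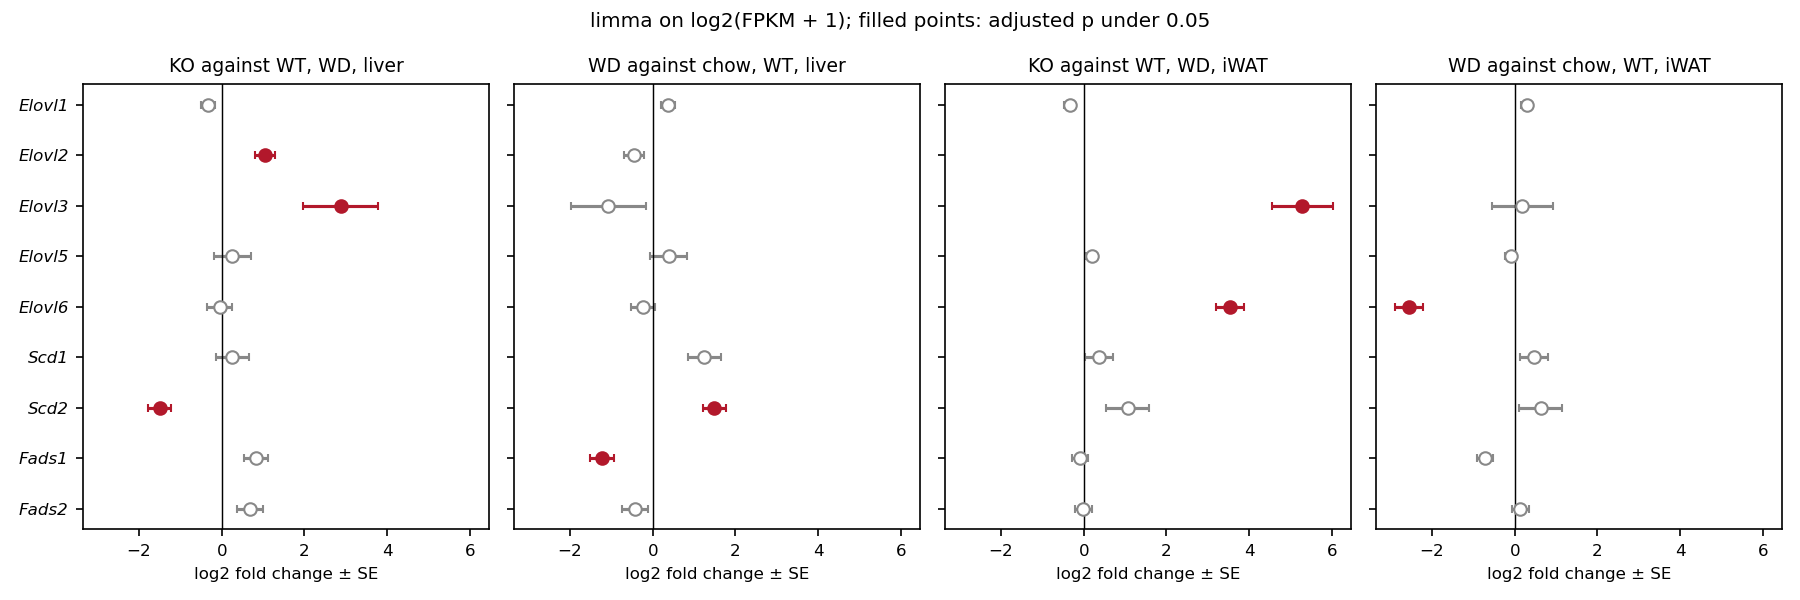
Log2 fold change of FPKM + 1 with its standard error (horizontal axis) for each tested gene in 4 comparisons of 3 against 3 mice, with genes called by limma filled in red. In liver these are Elovl2, Elovl3 and Scd2 for genotype on WD and Scd2 and Fads1 for diet in WT, and in iWAT they are Elovl3 and Elovl6 for genotype on WD and Elovl6 for diet in WT.

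In iWAT, Elovl3 and Elovl6 were the members called by limma. On WD both were higher in KO than in WT, and Elovl6 was lower in WT mice on WD than on chow. Of 8 members tested, limma called 2 higher and none lower for KO against WT on WD, where it called 4.25% of all 14685 genes. For WD against chow in WT it called 1 of 8, lower, where it called 2.12% of all genes. These backgrounds rest on few libraries. The 624 genes called for KO against WT on WD became 26 without WT WD iWAT 3, 17 without KO WD iWAT 1, 16 without KO WD iWAT 2, 253 and 215 without WT WD iWAT 1 or 2, 16 with only these groups in the fit and 4 without both libraries with the most muscle markers. The 312 genes called for WD against chow in WT became 22 to 287 without 1 library in turn, lowest without WT WD iWAT 3. The median over the 8 members was 0.28 and 0.16, and over all genes -0.02 and 0.01.

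Elovl3 was nearly absent from WT fat. It held 0.0887, 0.385 and 0.155 FPKM in WT chow iWAT and 0.234, 1.06 and 0 in WT WD iWAT, from 0 to 36 reads. In KO mice it held 43.0, 17.7 and 10.3 FPKM on chow and 86.6, 119 and 13.1 on WD, from 448 to 3656 reads. Each KO library therefore lay above each WT library on both diets. On WD the log2 difference, which the pseudocount of 1 shrinks for genes this low, was 5.28 ± 0.74 (adjusted p = 0.0134 by limma). That call ended with only these groups in the fit, without WT WD iWAT 3 (5.06, adjusted p = 0.0637), KO WD iWAT 1 (4.92, adjusted p = 0.0743) or KO WD iWAT 2 (4.69, adjusted p = 0.0701), and without both libraries with the most muscle markers (4.84, adjusted p = 0.132).

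Elovl6 (chromosome 3, 129532355 to 129638495, plus strand) changed with diet and with genotype. In WT iWAT it held 20.0, 19.2 and 27.7 FPKM on chow and 2.82, 3.99 and 2.10 on WD, a difference of -2.56 ± 0.34 (adjusted p = 0.0136 by limma). In KO iWAT it held 101, 58.8 and 43.6 FPKM on chow and 40.9, 67.5 and 31.7 on WD, and these overlapped (-0.51 ± 0.34, adjusted p = 0.659). On WD the KO mean was 15.7 times the WT mean, and the log2 difference was 3.55 ± 0.34 (adjusted p = 0.0040). This call held in each fit without 1 library, where it ranged from 3.25 to 3.78, but not without both libraries with the most muscle markers (3.59, adjusted p = 0.0659). The fall with WD in WT ended without WT WD iWAT 3 (-2.40, adjusted p = 0.0573).

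To show the stretch in front of the gene that moved most firmly in iWAT beside that of an elongase that did not, the upstream bases of Elovl6 and Elovl5 are given from RefSeq on GRCm38.p6, up to the deposited gene start. Capitals mark matches, on either strand, to CCAAT (the NF-Y box), CACGTG (the E-box, which reads the same on both strands) and AGGTCA (the nuclear receptor half-site), none of which overlap here. The Elovl6 stretch is chr3:129532136-129532354 and the Elovl5 stretch chr9:77917115-77917363, both on the plus strand.
Elovl6: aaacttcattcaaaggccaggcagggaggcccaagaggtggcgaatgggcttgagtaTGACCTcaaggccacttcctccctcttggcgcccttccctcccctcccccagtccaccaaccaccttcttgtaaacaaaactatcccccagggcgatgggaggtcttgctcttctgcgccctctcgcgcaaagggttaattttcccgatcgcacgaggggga
Elovl5: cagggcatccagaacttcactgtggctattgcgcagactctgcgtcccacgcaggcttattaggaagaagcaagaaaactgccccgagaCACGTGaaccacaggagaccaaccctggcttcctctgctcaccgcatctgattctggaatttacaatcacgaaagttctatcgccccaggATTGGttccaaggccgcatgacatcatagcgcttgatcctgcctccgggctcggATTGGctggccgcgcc
The Elovl6 stretch holds 1 half-site, and the Elovl5 stretch 2 NF-Y boxes and 1 E-box. In windows of 250 bases before the start, 14.0% of 32544 promoters held a half-site, 33.8% an NF-Y box and 6.03% an E-box. The sterol element TCACNCCAC, found in 1.04% of them, was in none of the windows of the 6 members that matched the table (Elovl1, Elovl2, Elovl5, Elovl6, Elovl7 and Fads2). A match describes letters only. Elovl3, Scd1, Scd2 and Fads1 were not matched.

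On chow the differences in iWAT were of the same direction but were not called. Elovl3 differed by 4.13 ± 0.74 (adjusted p = 0.41 by limma) and Elovl6 by 1.49 ± 0.34 (adjusted p = 0.532). For KO against WT on chow limma called 0 of the 14685 genes (0%), with 830 at an unadjusted p under 0.05. DESeq2 called 68 and edgeR 0. Fitted with the replicate block, 1 gene and no member was called. DESeq2 called Elovl3 (6.82, adjusted p = 9.93e-05) and Elovl6 (1.60, adjusted p = 0.00905), and the authors' deposited table gives 6.85 with an adjusted p of 4.43e-24 and 1.62 with 0.000897. The DESeq2 and deposited values rest on counts without the pseudocount of 1, but edgeR, run on the recovered reads, called neither gene. Why the tools differ was not tested.

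The change of the genotype difference with diet was not called for any member in iWAT. Elovl6 stood at 2.05 ± 0.48 (adjusted p = 0.573 by limma) and Elovl3 at 1.15 ± 1.04 (adjusted p = 0.866). In that test limma called 0 genes (0%), with 1011 at an unadjusted p under 0.05. DESeq2 called 51 and edgeR 0, the 51 including Elovl6 (2.41, adjusted p = 0.00549). In KO iWAT on WD against chow limma called 0 genes (0%), with 1390 at an unadjusted p under 0.05. There DESeq2 called 175, none of them a member, and edgeR 0. A larger Elovl6 difference on WD than on chow was thus not shown by limma or edgeR.

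Between KO and WT iWAT, brown and beige adipocyte markers moved in the direction of Elovl3 and Elovl6. Of 7 such markers, 5 were called higher in KO than in WT on WD and none lower (median 2.96), among them the lipid droplet protein Cidea (4.12, adjusted p = 0.017), the deiodinase Dio2 (1.49, adjusted p = 0.023) and the respiratory chain subunit Cox8b (3.37, adjusted p = 0.024). None of the 5 calls was kept without both libraries with the most muscle markers (median 3.39), without KO WD iWAT 1, without KO WD iWAT 2 or with only these groups in the fit, and 1 was without WT WD iWAT 3. On chow none was called (median 1.94). For WD against chow in WT iWAT, where Elovl6 was called lower, none of these markers was called. Over all 7 the summed level was 614 to 846 FPKM in KO and 138 to 148 in WT mice on chow, and 573 to 1813 in KO and 21.7 to 163 in WT mice on WD, with no marker at 0 throughout a group and Dio2 under 0.5 FPKM in both WT groups. Ucp1, the uncoupling protein that defines brown fat, was picked after its values were seen: it held 651, 699 and 129 FPKM in KO and 27.5, 28.0 and 0.168 in WT iWAT on WD (5.30 ± 1.11, adjusted p = 0.031). Reads from mitochondrial genes took 11.6%, 10.3% and 5.27% of the KO WD libraries and 3.42%, 3.29% and 2.49% of the WT WD libraries. KO WD iWAT 3, lowest of its group in Elovl3, was also lowest of it in the marker sum and in mitochondrial reads. The part of such cells in either result was not tested.

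No other member was called by limma within iWAT in the main fit. Scd1 stood at 3552 to 12380 FPKM over the 12 libraries, from 443793 to 1369004 reads, and differed by 0.37 ± 0.34 between KO and WT on WD (adjusted p = 0.618 by limma). Scd2 held 117, 157 and 234 FPKM in KO WD and 93.6, 108 and 45.6 in WT WD, without overlap, and was not called (1.07 ± 0.52, adjusted p = 0.308), while the authors' deposited table gives it 1.06 with an adjusted p of 0.0343. Elovl5 stayed between 17.4 and 25.9 FPKM, Fads2 between 3.46 and 6.82 and Elovl1 between 7.74 and 13.4. For KO against WT on WD, Elovl1 stood at -0.48 to -0.27 without 1 library in turn, with adjusted p-values by limma of 0.0415 to 0.442. Fads1 held 32.0, 35.4 and 23.8 FPKM in WT chow and 15.8, 19.9 and 18.3 in WT WD, without overlap and without a call by limma (-0.71 ± 0.19, adjusted p = 0.0808), though DESeq2 called it (-0.79, adjusted p = 0.00159). Elovl7 held 0.0992 to 0.632 FPKM in iWAT, from 9 to 75 reads, and neither it nor Elovl2 was tested there.

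The make-up of the elongase transcripts shows these shifts at once, as each gene's share of the summed FPKM of the 6 elongases, with no test. In liver Elovl2 and Elovl5 led in the chow groups, at 44.4% ± 7.62 (SD, n = 3) and 32.2% ± 5.39 in WT chow. Elovl3 took 38.7%, 8.09% and 25.2% in the livers labelled KO on WD and 1.36%, 8.01% and 9.72% in those labelled WT. In WT iWAT Elovl6 took 40.0%, 36.1% and 49.2% on chow and 7.83%, 10.8% and 6.49% on WD, where Elovl5 took 54.8% ± 5.83 and Elovl1 35.1% ± 4.76. In KO iWAT Elovl6 took 52.6% to 58.2% on chow, and on WD Elovl3 took 53.4%, 56.0% and 16.4% and Elovl6 25.2%, 31.6% and 39.6%. The deposited length of Elovl3 is shorter than in GENCODE vM21, and what this does to its share was not tested. The summed level of the 6 in iWAT was 53.0 ± 3.16 FPKM in WT and 120.3 ± 46.9 in KO mice on chow, and 35.1 ± 2.48 in WT and 152 ± 67.2 in KO mice on WD.

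**Figure D4:**
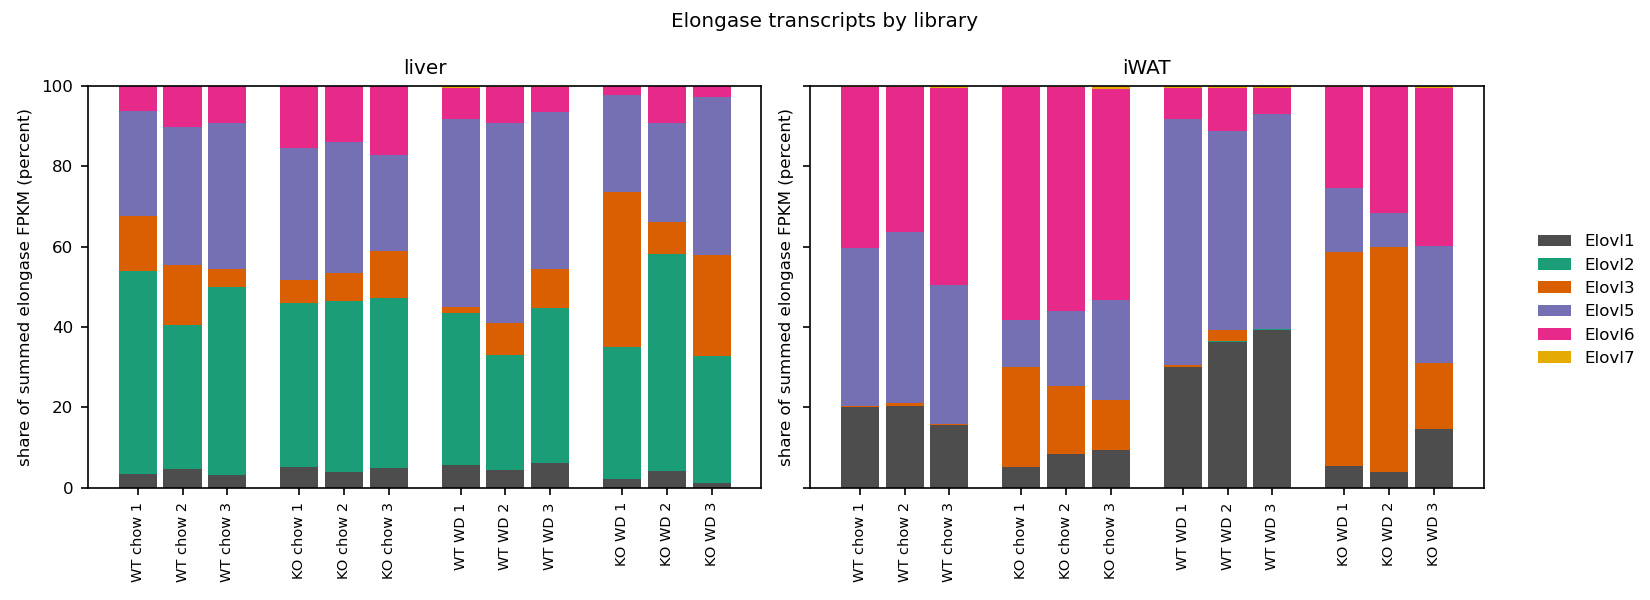
Share of each elongase in the summed FPKM of Elovl1, Elovl2, Elovl3, Elovl5, Elovl6 and Elovl7 (vertical axis, percent), with 1 stacked bar per library, liver on the left and iWAT on the right. Elovl2 and Elovl5 fill most of the liver bars, and in iWAT Elovl6 shrinks to 6.49% to 10.8% in WT WD while Elovl3 appears in the KO libraries at 12.5% to 56.0%.

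Genes that feed the elongases and desaturases were read from lists. The 8 genes that make malonyl-CoA and palmitate moved in the direction of Elovl6 in iWAT: 6 of 8 were called higher in KO than in WT on WD (median 1.81), with acetyl-CoA carboxylase Acaca at 1.79 (adjusted p = 0.0050), malic enzyme Me1 at 1.58 (adjusted p = 0.0093) and acetyl-CoA synthetase Acss2 at 2.08 (adjusted p = 0.022). None of the 6 calls was kept without both libraries with the most muscle markers (median 1.83), 1 was without WT WD iWAT 3, without KO WD iWAT 2 or with only these groups in the fit, 2 without KO WD iWAT 1 and 4 without WT WD iWAT 1. For WD against chow in WT iWAT 3 of 8 were called lower (median -1.59), namely Acaca (-1.63), fatty acid synthase Fasn (-1.96) and citrate lyase Acly (-1.65), of which 1 or 2 were called without 1 library in turn and Acaca alone without both libraries with the most muscle markers. In liver on WD 1 of the 8 was called between the genotypes, the citrate carrier Slc25a1 (0.58, adjusted p = 0.026). That call ended without WT WD liver 1 or 3 and without any 1 of the KO WD livers. It also ended without the 4 livers that carried acinar or muscle markers. For WD against chow in WT liver 2 of 8 were called lower (median -0.79), Slc25a1 (-1.16, adjusted p = 0.0015) and Acss2 (-1.77, adjusted p = 0.010). Each fit without 1 library called 2 lower, and the fit without those 4 livers called 1. Of the 6 genes for the later steps of the elongation cycle, 2 were called higher in KO than in WT on WD in iWAT, the ketoacyl reductase Hsd17b12 (1.38, adjusted p = 0.0050) and the enoyl reductase Tecr (0.57, adjusted p = 0.047). The Tecr call ended in every fit without 1 library and the Hsd17b12 call in none, but neither was called without both libraries with the most muscle markers. In liver, Tecr and the dehydratase Hacd3 were called higher (0.53 and 0.41) and the dehydratase-like Hacd4 lower (-0.75) in livers labelled KO on WD, and all 3 were called in the reverse direction for WD against chow in WT. These 2 comparisons share the WT WD livers. For the genotypes, Hacd4 kept its call in every fit without 1 library and without the 4 livers that carried acinar or muscle markers, where Hacd3 and Tecr lost theirs.

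Of the electron donors of the desaturases, none of 5 was called between the genotypes on WD in either tissue, and 1, cytochrome b5 (Cyb5a), was called lower on WD in WT liver (-0.56, adjusted p = 0.031), a call that ended without those 4 livers and without WT chow liver 2 or 3 or WT WD liver 1 or 3. Among other elongases and desaturases, 3 of the 7 in the table were tested in liver and 4 in iWAT, and none was called within a tissue. Of 12 transcription regulators 3 were called higher in livers labelled KO on WD, a share near the 21% of all genes called there: Rxra (0.84), the carbohydrate response factor Mlxipl (0.80) and the sterol sensor Scap (0.71), while Srebf1, the factor best known for Scd1 and Elovl6, was not (0.63). Scap lost its call without any 1 of the 6 WD livers. For WD against chow in WT liver 4 of 12 were called lower and none higher, where 19.2% of all genes were called. Among them were Srebf2 (-0.80), Scap (-0.91) and Insig1 (-1.58). Without 1 library in turn 0 to 4 were called lower. Without the 4 livers that carried acinar or muscle markers 2 were, and with only these groups in the fit 0 were. In iWAT on WD 1 of 12 was called, the fatty acid receptor Ppara (1.94, adjusted p = 0.029), which was not called without both libraries with the most muscle markers or in 5 of the 6 fits without 1 WD library.

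The diet and genotype differences of Elovl6 and the genotype difference of Scd2 were not alike in the 2 tissues, tested over all 24 libraries. The labels do not say whether liver and iWAT with the same number came from 1 mouse, and the test treats them as separate. Same-numbered pairs correlated at 0.00633 to 0.348 across genes, above 0 in 12 of 12 and above 0.1 in 7, and other pairs of a group at -0.254 to 0.0587. With the number as a block, no member's call between the tissues changed. For the response of WT mice to WD, 1 of 9 members was called, where 8.44% of 15254 genes were: Elovl6 differed by 2.32 ± 0.47 between liver and iWAT (adjusted p = 0.00657 by limma), since it fell in iWAT. For the genotype difference on WD, 3 of 9 were called, where 7.43% of all genes were. Elovl6 differed by -3.60 ± 0.47 (adjusted p = 0.000245), higher in KO iWAT and at -0.05 in liver. Scd2 differed by -2.56 ± 0.61 (adjusted p = 0.0172), lower in the livers labelled KO and at 1.07 in iWAT. Elovl2 differed by 1.04 ± 0.25 (adjusted p = 0.0187), but in iWAT it was at or near 0 reads. It passed the filter over both tissues through liver alone, so its value repeats the difference within liver and compares no tissues. The Scd2 call ended without WT WD liver 1 (-2.39, adjusted p = 0.0519), and the Elovl2 call without WT WD liver 3 or KO WD liver 3 and under 5 other settings, edgeR and DESeq2 among them. Without the 6 libraries with acinar or muscle markers Scd2 (-3.04, adjusted p = 0.0506), Elovl2 (1.24, adjusted p = 0.0691) and the diet response of Elovl6 (2.04, adjusted p = 0.0676) were not called.

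For the members that varied most, the genes of most similar pattern were sought within a tissue by the mean absolute difference of centred log2 levels over its 12 libraries, as a description. In iWAT Elovl3 lay nearest to Cox7a1 (0.85), Cidea (0.90) and Fabp3 (1.06), against a median of 2.37 over 12406 genes. Elovl6 lay nearest to Fasn (0.63), mt-Ti (0.63) and Gys2 (0.66), against 1.34. In liver Scd2 lay nearest to Serpinh1 (0.13), Col4a1 (0.17) and Tgm2 (0.18), against 0.75, and Scd1 to Slc17a4 (0.30), Cldn2 (0.34) and Lad1 (0.36). Elovl3 in liver lay nearest to Pitx3 (0.63), Cyp8b1 (0.73) and Gldc (0.75), against 1.10.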

How the data were processed

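Liver and iWAT RNA of 24 libraries was analysed from the authors' FPKM of 54532 genes, per the file headers. The deposited gene length stood beside them. HISAT2 2.0.5, mm10 and DESeq2 1.20.0 stand, without roles, in the submitters' processing notes. The sources used here name neither the counter nor its strand setting. For KO against WT the authors' tables give counts of reads, log2 fold changes and p-values with adjusted p-values, per the file headers. Another 56 columns of library or group values were not used. Multiplying FPKM by gene length and a constant per library gave whole reads, within 0.01, for 100% of 540911 values above 0, and all 64434 deposited counts compared were equal to them. The constant was 0.769 to 1.072 times the reads in liver and 1.243 to 1.596 times in iWAT, so the FPKM carry a scaling factor. In liver this factor went with the group. It was 1.072, 0.98 and 1.02 in WT WD livers 1, 2 and 3 and at most 0.854, in WT chow liver 2, among the others. Relative to total reads, FPKM in the WT WD livers therefore stand lower than in the other livers.

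Where a gene's mean over the libraries fitted reached 0.5 FPKM it was tested with limma 3.58.1 (trend, robust) on log2(FPKM + 1) in R 4.3.3, with all groups of a tissue, or of both, in 1 model. edgeR 4.0.16 and DESeq2 1.42.0 ran on the recovered reads as alternatives, beside other pseudocounts, filters, scalings, sample sets and left-out libraries. Tests were checked on simulated data. The 10 genes, all named, and the lists, of which up to 3 called genes per comparison are named, were chosen with earlier results of these data known. Deviations of same-numbered libraries correlated above 0.1 throughout, among comparisons within a tissue, only in the chow iWAT of KO and WT (r = 0.184, 0.127 and 0.407 across genes). Between liver and iWAT they did so in WT on WD (0.226, 0.348 and 0.247) but not in the 3 other groups. These correlations are a hint from the data, since the labels pair nothing. In chow iWAT libraries 1 and 2 also correlated across numbers (0.136 and 0.258), so the values there do not single out pairs by number. Python 3.11.15, pandas 2.3.3 and matplotlib 3.10.9 made tables and plots. Protein sequences were not used here. In 5 of the 10 genes the deposited coordinates equal those of GENCODE vM21, and Elovl1, Elovl6 and Scd2 share 53, 34 and 61 exonic bases with another gene.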

Additional observations from a re-analysis of the deposited data

Results flagged for a closer look

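Differences between the tissues were tested over the 24 libraries, and 4 of them passed. The response of Elovl6 to WD in WT mice was 2.32 higher in liver than in iWAT on the log2 scale (adjusted p = 0.00657 by limma). The difference of KO from WT on WD was -3.60 for Elovl6 (adjusted p = 0.000245), -2.56 for Scd2 (adjusted p = 0.0172) and 1.04 for Elovl2 (adjusted p = 0.0187), each as liver minus iWAT. Elovl2 gave at most 11 reads in an iWAT library, so its value is in effect that of liver and does not compare the tissues.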

How the results depend on the processing

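Over 20 called results of single members, 218 refits other than leaving out 1 library kept 192 calls with their direction, lost 25 and reversed 1, and 144 refits without 1 library kept 127, lost 17 and reversed none. The reversed value was Elovl1 in liver against iWAT, -0.32 scaled to total reads. Among context genes in the same setting Mrs2 turned to -0.26 and Tecr to -0.11, and Tecr to -0.24 with quantile normalization. For the liver minus iWAT difference of KO from WT on WD, Cps1 turned to -0.024 with quantile normalization, -0.32 with edgeR and -0.27 with DESeq2. The causes were not tested. Counts of called members moved, with the following as examples. For KO against WT on WD in liver, 3 became 1 with quantile normalization, 2 with edgeR and 4 with DESeq2. With only the groups compared, 1 was called higher and 1 lower, as without the libraries with acinar or muscle markers. For WD against chow in WT liver, 2 became 4 scaled to total reads, 0 with only the groups compared and 1 without the libraries with acinar or muscle markers. That count was 3 with edgeR and 3 with DESeq2. DESeq2 called 4 in KO liver on WD, 1 in the liver interaction, 2 in KO against WT on chow in iWAT and 1 in the iWAT interaction, where the main count was 0. Of all genes DESeq2 called 633, 528, 68 and 51 in these comparisons, against 59, 77, 0 and 0 in the main fit. In iWAT, KO against WT on WD fell from 2 to 1 with only the groups compared and to 0 without the muscle libraries, and WD against chow in WT rose from 1 to 2 scaled to total reads, with quantile normalization and with DESeq2. The tissue difference of the diet response went from 1 to 2 without the filter (Elovl7 added) and with DESeq2, and to 0 without the acinar and muscle libraries. That of the genotype difference went from 3 to 1 without those libraries and to 2 with edgeR. Leaving out 1 library in turn gave 1 to 4 for KO against WT on WD and 1 to 3 for WD against chow in WT in liver, 0 to 1 for the liver interaction, 1 to 3 and 0 to 1 for the same comparisons in iWAT, and 1 to 2 for the tissue difference of the diet response. The fit without the acinar and muscle libraries was added after seeing the data and tests fewer samples.

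Within a tissue the correlations do not clearly support the replicate block in any comparison. With that block limma called 2565 genes against 2943 for KO against WT on WD in liver. It called 155 against 312 for WD against chow in WT iWAT. Between the tissues, where same-numbered pairs correlated in WT on WD, it called 956 against 1288 for the diet response and 800 against 1133 for the genotype difference. Total-read scaling moved the median of all genes by over 0.1, to -0.17 for KO against WT on WD and 0.20 for WD against chow in WT in liver. Elovl7 in both tissues and Elovl2 in iWAT are limited by depth.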
